A study of Mus musculus with 3 samples.

Results

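The antioxidant enzymes described here are encoded by 10 genes, chosen by symbol from the 31040 genes of the UMI table, and all 10 had a row. They are the superoxide dismutases Sod1, Sod2 and Sod3, the copper chaperone Ccs, catalase (Cat), the glutathione peroxidases Gpx1 and Gpx4, and the peroxiredoxins Prdx1, Prdx2 and Prdx6. Single nuclei were sequenced from the lumbar spinal cords of 12 mice at age 90 days, 3 of them female and 3 male in each genotype. SOD1G93A mice, strain B6.Cg-Tg(SOD1*G93A)1Gur/J, carry a high-copy human SOD1 transgene with an amyotrophic lateral sclerosis mutation, and their C57BL/6J littermates without it were the wild-type (WT) controls. The labels list no treatment. Each 10x run was a pool of nuclei from 4 hashtagged mice, a WT and an SOD1G93A mouse of each sex, giving the pools A, B and C. Because the transgene is itself a superoxide dismutase, the counts on Sod1 serve as the transgene readout, and the 9 other genes carry the comparisons.

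Superoxide dismutases turn superoxide into hydrogen peroxide, SOD1 mainly in the cytosol, SOD2 in the mitochondrial matrix and SOD3 outside the cell, and CCS loads copper into SOD1. Hydrogen peroxide is then removed by catalase in peroxisomes, by glutathione peroxidases that use glutathione, and by peroxiredoxins. GPX4 differs from its relatives in reducing lipid peroxides within membranes and so limits ferroptosis, and PRDX6 also has phospholipase activity. Many of the genes of this defence are induced through NRF2, a transcription factor that binds antioxidant response elements in their promoters.

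In the GRCm38 (mm10) genome Sod1 lies on chromosome 16 (90220754 to 90226329, plus strand), and the other members lie on chromosomes 17 (Sod2), 5 (Sod3), 19 (Ccs), 2 (Cat), 9 (Gpx1), 10 (Gpx4), 4 (Prdx1), 8 (Prdx2) and 1 (Prdx6). Scaf4 overlaps Sod1 on the opposite strand, and Junb and Rnaseh2a overlap Prdx2 in the same way. Cell Ranger, with which the counts were made, assigns reads to genes on their own strand by default. The near-copy Prdx6b was counted as a separate gene and had 8 UMIs in all. RefSeq promoter windows (GRCm38.p6, 250 bases before to 50 after the start) were at hand for 7 of the 10 members. The core of the antioxidant response element was searched as TGACNNNGC on both strands. It was found in the windows of Prdx1 and Sod1 and in 12.4% of all 32851 promoter windows. Prdx1 was higher in dorsal than in ventral excitatory and inhibitory neurons in 12 of 12 mice, though not than in every ventral sub-type (values given with the neuron sub-types). Its window is shown because it holds these letters. The match reads on the minus strand and is in capitals, and it is a description of the letters, not of a bound site.

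Prdx1 promoter, chr4:116685349-116685648, plus strand: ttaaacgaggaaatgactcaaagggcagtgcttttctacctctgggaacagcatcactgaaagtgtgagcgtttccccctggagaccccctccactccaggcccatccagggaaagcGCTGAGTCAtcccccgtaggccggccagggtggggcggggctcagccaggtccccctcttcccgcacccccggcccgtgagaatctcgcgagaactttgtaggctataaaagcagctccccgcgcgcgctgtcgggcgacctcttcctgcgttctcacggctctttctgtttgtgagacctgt

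The table holds 206486779 UMIs, unique molecular identifiers that each stand for 1 captured RNA molecule, in 14662 nuclei. The members had between 368 (Sod3) and 32458 (Sod1) UMIs in total, with 2916 for Ccs and 7540 for Prdx1. UMIs were summed per mouse and deposited cell type, and levels are given as CPM, UMIs of the gene per 1000000 UMIs of that type in that mouse. CPM values of nuclei depend on transcript length and on introns, so each gene was compared with itself across types and mice, and not with other genes. Schwann and meningeal nuclei had a median of 1584 UMIs, and 82.7% had fewer than 3000. Their own markers summed to 126 CPM, against 524 CPM for the astrocyte markers and 440 CPM for the neuronal ones, and the oligodendrocyte genes Mbp and Mog together had a median of 1920 CPM over the 12 mice, against 3389 CPM in oligodendrocytes. The name Schwann and meningeal is therefore used as the deposited label. Microglial nuclei had a median of 46927 UMIs, and their microglial markers summed to 80.9 CPM against 518 CPM for neuronal and 672 CPM for OPC markers, and Mbp and Mog together had a median of 1216 CPM, so this group is called microglia only by its label. Motor neurons numbered 67 nuclei, from 1 to 11 per mouse. A total of 30 nuclei shared a barcode with a nucleus of another pool.

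Sod1 was called in 7 of the 10 types at an adjusted p under 0.1 (limma-voom, pool as a block), and in the other 3 it was either not called (OPCs and ependymal cells) or did not pass the count filter (fibroblasts). The log2 fold change was largest in motor neurons, a type lost in the disease, where WT mice had between 5.58 and 41.5 CPM (median 14.8) and SOD1G93A mice between 72.3 and 768 CPM (median 169). The lowest SOD1G93A mouse lay above the highest WT mouse there, and the log2 fold change was 3.85 (standard error 0.32, limma adjusted p = 5.4e-07). The WT values rested on 39 UMIs, and the lowest SOD1G93A value on 1 nucleus. Over 24 alternatives the log2 fold change ran from 3.46 to 4.07, a range that covered that of endothelial cells (3.62 to 3.75). The types were not tested against each other. Endothelial cells rose from 140.5 ± 40.1 to 1805 ± 492 CPM (SD, n = 6 mice each), Schwann and meningeal cells from 465 ± 296 to 2812 ± 1595 CPM, and astrocytes from 135 ± 78.9 to 687 ± 358 CPM. Neurons and oligodendrocytes had the smallest log2 fold changes of the called types, 1.29 and 1.23, and in both the groups of mice overlapped, although the SOD1G93A mouse was the higher in 6 of 6 pairs of the same sex and pool. Without the pool term Sod1 was called in 4 types. In OPCs the log2 fold change was 1.64 (limma adjusted p = 0.165, called in 7 of 24 alternatives, edgeR and DESeq2 among them), and in microglia 2.41 (limma adjusted p = 0.0915, called in 14 of 24 alternatives). The percent of all tested genes called between genotypes was 2.29 in astrocytes, 3.07 in motor neurons, 0.0131 in endothelial cells, 0.0759 in microglia, 0.0255 in neurons, 0.0475 in oligodendrocytes, 0.0411 in OPCs, 0.036 in Schwann and meningeal cells, and 0 in ependymal cells and in fibroblasts.

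**Figure D1:**
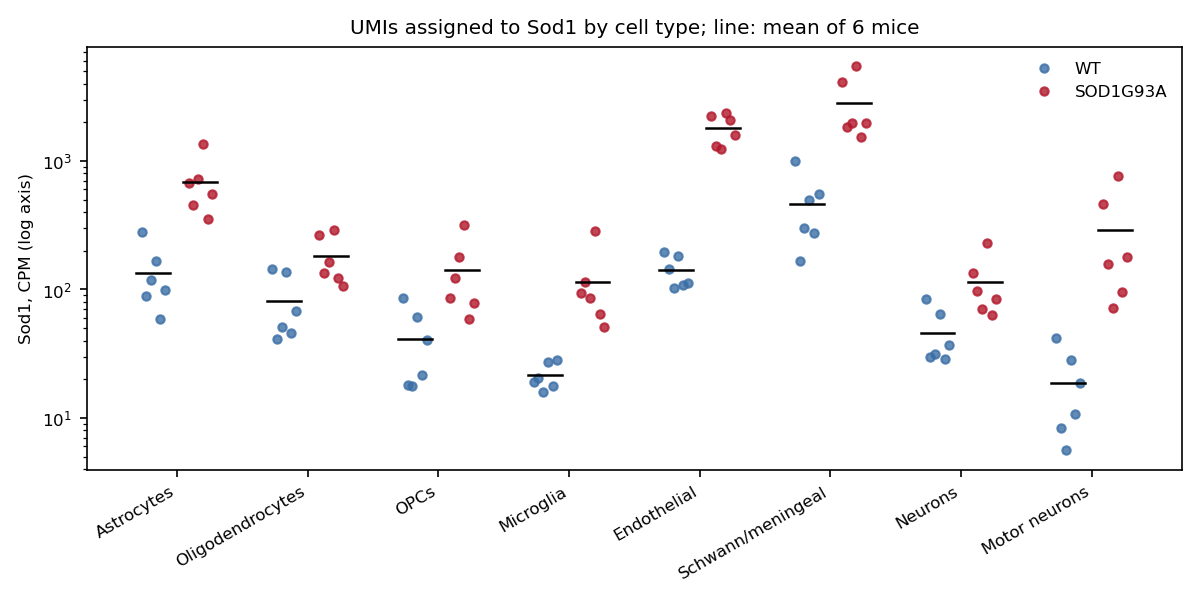
CPM of Sod1 (log axis) in each mouse by cell type, WT in blue and SOD1G93A in red, with a line at the mean of 6 mice. The groups do not overlap in astrocytes, microglia, endothelial cells, Schwann and meningeal cells and motor neurons, and they overlap in oligodendrocytes, OPCs and neurons.

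Reads of the human transgene and of mouse Sod1 cannot be told apart in these counts. In WT mice, which lack the transgene, Sod1 was higher in nuclei under 3000 UMIs than in deeper ones of the same type, at 284 against 109 CPM in astrocytes, 345 against 135 CPM in endothelial cells and 583 against 177 CPM in Schwann and meningeal cells. WT and SOD1G93A nuclei shared each pool, and the part of RNA exchanged between nuclei in these values was not tested. WT mice of pool A had 84.9 and 64.0 CPM in neurons, against 28.6 to 37.2 CPM in pools B and C. The same held in astrocytes (279 and 166 against 58.5 to 118 CPM) and motor neurons (41.5 and 28.1 against 5.58 to 18.8 CPM). In microglia and in Schwann and meningeal cells the pools overlapped. In all of these types the highest SOD1G93A mouse was the pool A male, and the cause was not tested. Among neuron sub-types Sod1 was called in 8 of 9, with log2 fold changes from 1.07 in dorsal inhibitory neurons (DI) to 1.75 in ventral mixed neurons (VM). The mid excitatory neurons (ME) were the exception, at 0.71 (limma adjusted p = 0.994). Without the pool term no sub-type was called by limma (0 of 9), while edgeR and DESeq2 with that term each called 8. WT levels already differed between sub-types, with 59.9 CPM in dorsal excitatory (DE) and 57.8 CPM in DI neurons. Ventral excitatory (VE) neurons had 33.9 CPM and ventral inhibitory (VI) neurons 34.2 CPM. The dorsal value was the higher in 6 of 6 WT mice in both pairs, also in nuclei of at least 3000 UMIs alone. In DE neurons the WT mice of pool A had 118 and 87.0 CPM, and those of pools B and C 32.9 to 47.2 CPM. Dorsal nuclei were shallower, with medians of 10188 (DE) and 11763 (DI) against 19812 (VE) and 23031 UMIs (VI). The part of depth in these levels was not tested further.

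In WT mice these enzymes were unevenly spread over the cell types. Each of the 8 types with nuclei in every mouse was compared with the mean of the other 7 (limma-voom, mouse as a block), and a level was called when the adjusted p was under 0.1 and the log2 difference was over 1 or under -1. Over the 10 members, 16 levels were called higher and 19 lower. Depth differed too, with medians of 1584 UMIs in Schwann and meningeal cells, 5338 in astrocytes, 5786 in oligodendrocytes and 6963 in endothelial cells. OPCs had 10016, neurons 12864.5, microglia 46927 and motor neurons 53245. In WT neurons most members were higher in nuclei under 3000 UMIs, as Gpx4 (70.8 against 12.5 CPM), while Sod2 was lower (19.3 against 24.9 CPM). With only nuclei of at least 3000 UMIs, 18 levels were higher and 18 lower, and depth was not tested further. Endothelial cells were higher for 5 of 10 members (23.9% of all genes were called higher in this type and 30.3% lower), astrocytes for 3 (12.1% higher, 12.9% lower), and Schwann and meningeal cells for 8 (24.3% higher, 13.6% lower). No member was called higher in the other 5 types, although Prdx1 in oligodendrocytes (log2 difference 0.99) was in 6 of 17 alternatives. Neurons were lower for 6 members (15.6% of all genes lower, 11.7% higher), motor neurons for 5 (19.7% lower, 13.7% higher), microglia for 4 (8.49% lower, 7.47% higher), oligodendrocytes for 3 (12.6% lower, 9.94% higher) and OPCs for 1 (5.35% lower, 7.12% higher). The lower calls of Sod3 in neurons, microglia and oligodendrocytes rested on 27, 2 and 10 UMIs and did not hold with edgeR, which turned the sign in oligodendrocytes (0.49). When a type had to stand above every other single type by the same rule, 4 of the 16 higher calls met it. They were Sod3 and Gpx1 in endothelial cells and Sod1 and Sod2 in Schwann and meningeal cells, where 89.1% of the WT nuclei had under 3000 UMIs. The count filter kept Sod3 and Gpx1 for their endothelial counts. Their calls are included in these counts but are not read as support.

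**Figure D2:**
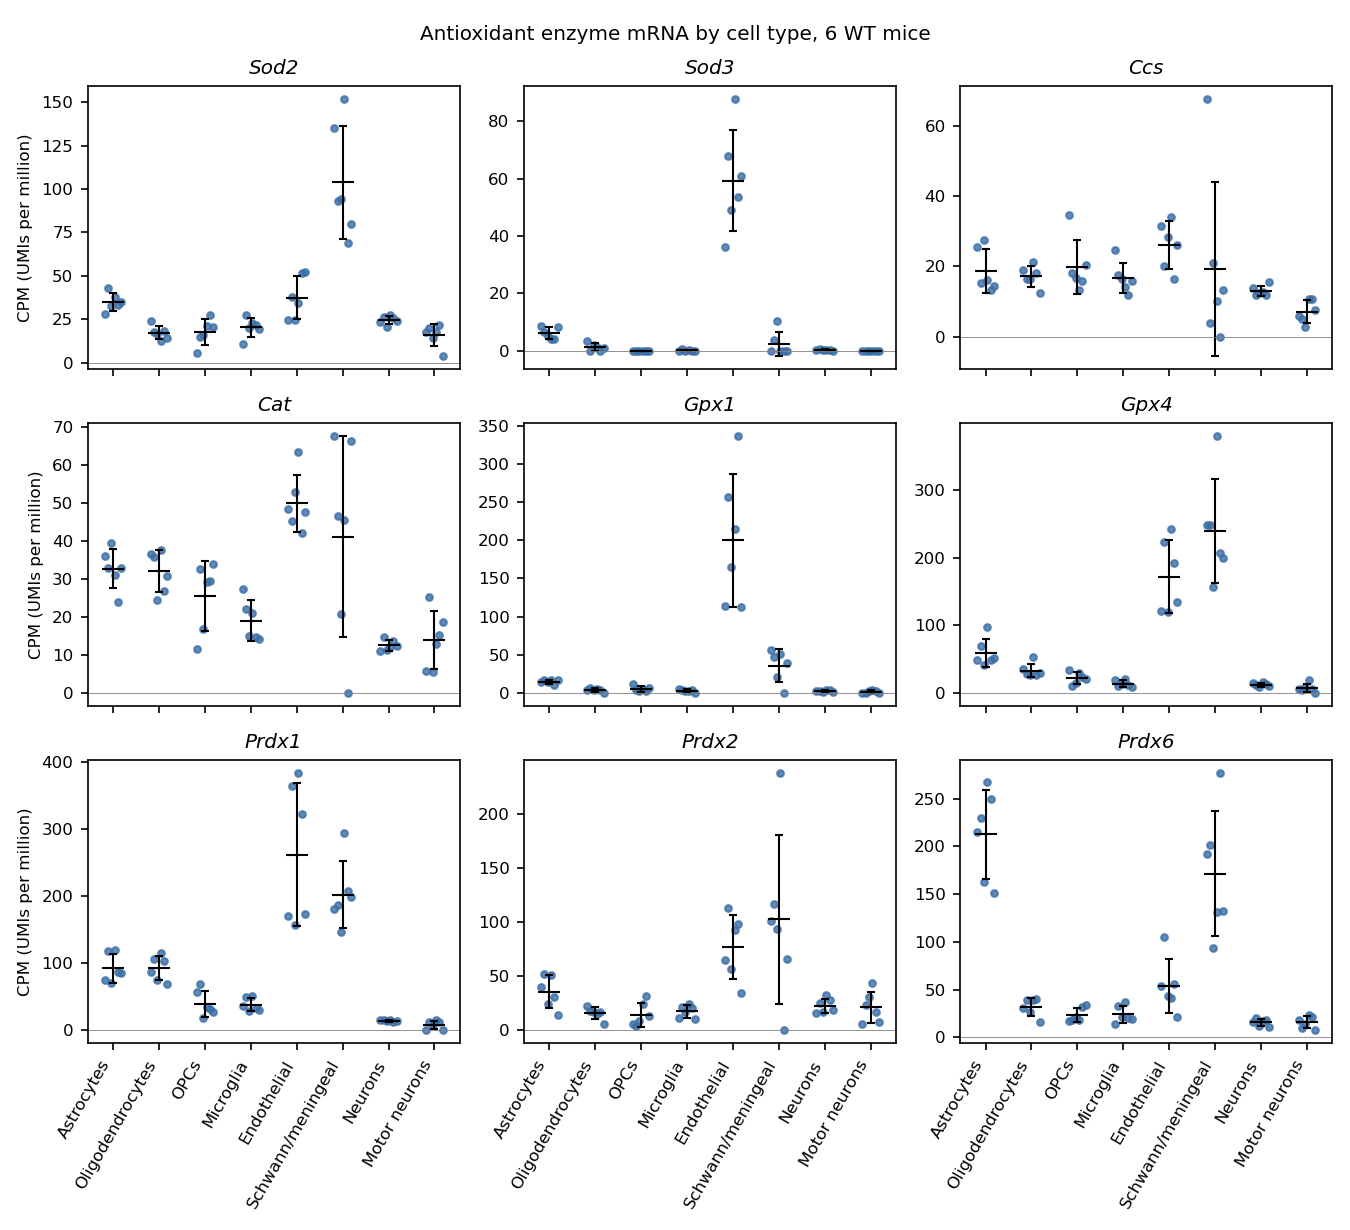
CPM of the 9 members other than Sod1 in 6 WT mice (points) by cell type, with the mean and SD as bars. Sod3 and Gpx1 stand out in endothelial cells, Prdx6 is high in astrocytes and in Schwann and meningeal cells, whose ranges overlap, and Ccs has similar means in most types.

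Sod3, the secreted dismutase, was highest in endothelial cells. Endothelial cells of WT mice had between 36.4 and 87.9 CPM (median 57.3), and astrocytes, next in the order, had between 4.01 and 8.51 CPM (median 5.85). The lowest endothelial value lay above the highest astrocyte value, and endothelial cells were the higher in 12 of 12 mice when SOD1G93A mice were added. The log2 difference of endothelial cells from the other types was 4.91. The count filter of this fit kept Sod3 for its endothelial counts, so no p is given for this difference. Neurons, with 27 UMIs in all 6 WT mice, had 0.278 ± 0.176 CPM. No UMI was counted in WT motor neurons or OPCs, which allows up to 1.199 and 1.23 CPM (3 counts over the group), so that endothelial cells were at least 49.4-fold and 48.0-fold higher. These limits cover counting error only. Astrocytes were also counted as higher in WT mice (log2 difference 1.72), on 30 UMIs. In SOD1G93A mice, on 20 UMIs, their log2 difference was 0.80, under the threshold of 1. The filter kept Sod3 for its endothelial counts, so no p is given for these differences either. The call in Schwann and meningeal cells rested on 2 UMIs, and no step below that from endothelial cells to astrocytes exceeded the SD of the within-mouse differences.

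Sod2, the mitochondrial dismutase, was spread more evenly. Schwann and meningeal cells had 104 ± 32.6 CPM, endothelial cells 37.4 ± 12.3, astrocytes 34.9 ± 5.10, neurons 24.5 ± 2.45, microglia 20.4 ± 5.45, OPCs 17.5 ± 7.41, oligodendrocytes 17.1 ± 3.83 and motor neurons 15.7 ± 6.42 CPM (SD, n = 6 WT mice). Only the steps from Schwann and meningeal to endothelial cells and from astrocytes to neurons exceeded the SD of the within-mouse differences over 12 mice. Astrocytes were above neurons in 11 of 12 mice. It was the one member besides Ccs that was not called lower in any type.

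Ccs, the chaperone that delivers copper to SOD1, showed no called difference in any of the 8 types, although motor neurons were called lower in 2 of 16 alternatives. Its WT means ran from 7.14 ± 3.21 CPM in motor neurons to 26.1 ± 6.78 CPM in endothelial cells, and none of the 7 steps between neighbours exceeded the SD. In motor neurons, where Sod1 UMIs were 3.85 log2 units higher in SOD1G93A mice, Ccs did not pass the count filter. It had 19 UMIs (7.14 ± 3.21 CPM) in WT and 15 UMIs (14.5 ± 10.9 CPM) in SOD1G93A mice, with the SOD1G93A mouse the higher in 5 of 6 pairs and the groups overlapping.

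Cat, which encodes the peroxisomal catalase, was called lower in neurons (log2 difference -1.02) and was not called in the other 7 types. Its mean was 49.99 ± 7.52 CPM in endothelial cells, 41.2 ± 26.4 in Schwann and meningeal cells, 32.8 ± 5.20 in astrocytes, 32.0 ± 5.53 in oligodendrocytes, 25.6 ± 9.20 in OPCs, 19.1 ± 5.29 in microglia, 13.98 ± 7.58 in motor neurons and 12.6 ± 1.43 CPM in neurons. No step between neighbours exceeded the SD, although oligodendrocytes lay above neurons in 12 of 12 mice. Neurons were called lower in 9 of 16 alternatives, with log2 differences from -1.19 to -0.88.

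Gpx1, the main cytosolic glutathione peroxidase, was also highest in endothelial cells. WT endothelial cells had between 113 and 337 CPM (median 190), Schwann and meningeal cells between 0 and 56.4 CPM (median 43.2), and astrocytes between 10.3 and 16.9 CPM (median 15.7). The endothelial values did not overlap with those of the other 7 types that had nuclei in every mouse. The log2 difference from the other types was 4.62, and the ratio of means to neurons, at 2.68 ± 0.905 CPM, was 74.7. As with Sod3, the count filter of this fit kept Gpx1 for its endothelial counts, so no p is given for this difference. Gpx1 was lower than the other types in neurons, motor neurons, microglia and oligodendrocytes, with means between 1.70 and 3.93 CPM. These calls rested on 268, 5, 35 and 48 UMIs in WT mice, in that order. Although endothelial cells were the higher in 12 of 12 mice, the mean step to Schwann and meningeal cells (2.13 on the log2 scale) was within its SD of 2.15, and the step from astrocytes to OPCs was the one that exceeded its SD.

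Gpx4, the lipid peroxide reductase, followed a graded order. It had 240 ± 76.6 CPM in Schwann and meningeal cells, 172 ± 54.2 in endothelial cells, 59.5 ± 20.9 in astrocytes and 33.3 ± 10.2 in oligodendrocytes, and each of these 3 steps exceeded the SD of the within-mouse differences. Astrocytes were above oligodendrocytes in 12 of 12 mice. The remaining steps did not exceed the SD, with 22.2 ± 8.85 CPM in OPCs, 14.05 ± 4.67 in microglia, 12.7 ± 2.88 in neurons and 7.49 ± 6.49 CPM in motor neurons. Neurons, motor neurons and microglia were called lower, with log2 differences of -1.53, -2.17 and -1.43. The call in motor neurons, on 20 UMIs, was not made in SOD1G93A mice, where the log2 difference was -0.83 (limma adjusted p = 0.00279).

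The peroxiredoxins differed from each other in their leading types. Prdx1 was highest in endothelial cells (262 ± 106 CPM) and in Schwann and meningeal cells (202 ± 49.5 CPM), which were both called higher. Oligodendrocytes (92.6 ± 18.2 CPM) and astrocytes (92.4 ± 21.7 CPM) were level with each other, the former higher in 6 of 12 mice. OPCs (39.8 ± 19.3 CPM) and microglia (38.0 ± 9.68 CPM) lay lower. Neurons (14.1 ± 1.11 CPM) and motor neurons (7.93 ± 6.51 CPM) came last, with log2 differences of -2.03 and -2.74 from the other types. Every one of the 12 mice had more Prdx1 in microglia than in neurons.

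Prdx2, a cytosolic peroxiredoxin, was not called lower in neurons (22.7 ± 6.59 CPM) or motor neurons (21.3 ± 14.3 CPM), unlike Prdx1 and Prdx6. It was called higher in Schwann and meningeal cells (103 ± 78.0 CPM) and endothelial cells (76.8 ± 29.4 CPM) and lower in oligodendrocytes (15.8 ± 5.36 CPM) and OPCs (14.5 ± 11.1 CPM), calls that held in 11 and in 14 of 17 alternatives. Astrocytes had 35.5 ± 15.3 CPM and microglia 17.4 ± 5.71 CPM.

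Prdx6 was highest in astrocytes. Astrocytes of WT mice had between 151 and 267 CPM (median 222), and endothelial cells between 21.7 and 106 CPM (median 48.4). Schwann and meningeal cells, between 94.0 and 277 CPM (median 162), overlapped with astrocytes, although astrocytes were higher in 11 of 12 mice. The ratio of astrocyte to neuron means was 13.5, with neurons at 15.7 ± 3.80 CPM, and the log2 difference of astrocytes from the other types was 2.70 (limma adjusted p = 1.2e-22). Oligodendrocytes had 32.0 ± 9.47 CPM, microglia 24.2 ± 8.86, OPCs 23.4 ± 7.35 and motor neurons 15.8 ± 6.41 CPM. Neurons and motor neurons were called lower. In motor neurons the log2 difference was -1.20, and the call held in 15 of 17 alternatives, being lost without the pool B WT female (-0.96) and without Schwann and meningeal nuclei in the fit (-0.97).

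Levels in Schwann and meningeal nuclei were checked in the few deep ones. In the 38 WT nuclei with at least 3000 UMIs the value was 198 CPM for Gpx4, 181 for Prdx1, 124 for Prdx6 and 121 for Prdx2, against 313, 232, 188 and 149 CPM in the 310 shallower nuclei. All 4 stayed above the WT mean of neurons in both. Sod2 was at 90.4 CPM in the deep and 128 CPM in the shallower nuclei, against 34.5 CPM in deep endothelial nuclei. Sod1 was at 177 CPM in the deep and 583 CPM in the shallower nuclei, against 135 CPM in deep endothelial nuclei, and whether deep nuclei alone stand above every other type was not tested. Without this type in the fit, 12 levels were called higher and 15 lower over the remaining 7 types, which had 8 higher and 19 lower calls with it. Ependymal cells and fibroblasts, with 252050 and 214721 UMIs in all mice together, held between 2 and 22 and between 0 and 12 UMIs of each member other than Sod1, and their levels were not ordered.

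Within neurons, dorsal and ventral excitatory and inhibitory sub-types differed in some members, which was noticed in the values and is given as a description without a test. Prdx1 had 17.3 ± 3.08 CPM in DE against 8.84 ± 1.65 CPM in VE neurons (SD, n = 12 mice), and 16.3 ± 4.57 CPM in DI against 7.78 ± 2.54 CPM in VI neurons. DE neurons lay between 12.4 and 24.3 CPM and VE neurons between 6.42 and 11.3 CPM, so that the values did not overlap. The dorsal value was the higher in 12 of 12 mice in both the excitatory and the inhibitory pair. Gpx4 had the same order in 12 of 12 mice for the excitatory pair (15.6 against 11.1 CPM) and in 10 of 12 for the inhibitory pair.

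Cat ran the other way from Prdx1 in the excitatory and inhibitory pairs. It had 16.0 CPM in VE against 6.86 CPM in DE neurons and 17.5 CPM in VI against 8.88 CPM in DI neurons, and the ventral value was the higher in 11 of 12 mice in both pairs. Sod2 was also higher in ventral neurons, in 10 of 12 mice for the excitatory pair (26.9 against 21.4 CPM) and in 12 of 12 for the inhibitory pair (31.4 against 20.2 CPM). Prdx2 and Prdx6 showed mean log2 differences between ventral and dorsal neurons of 0.07 and -0.12 in the excitatory pair, each smaller than its SD of 0.34 and 0.33. Ventral nuclei were deeper than dorsal ones, with medians of 19812 (VE) and 23031 (VI) against 10188 (DE) and 11763 (DI) UMIs, and the part of depth in these differences was not tested beyond leaving out nuclei under 3000 UMIs. That left Prdx1 higher in dorsal neurons in 12 of 12 mice in both pairs and Cat higher in ventral neurons in 11 of 12.

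**Figure D3:**
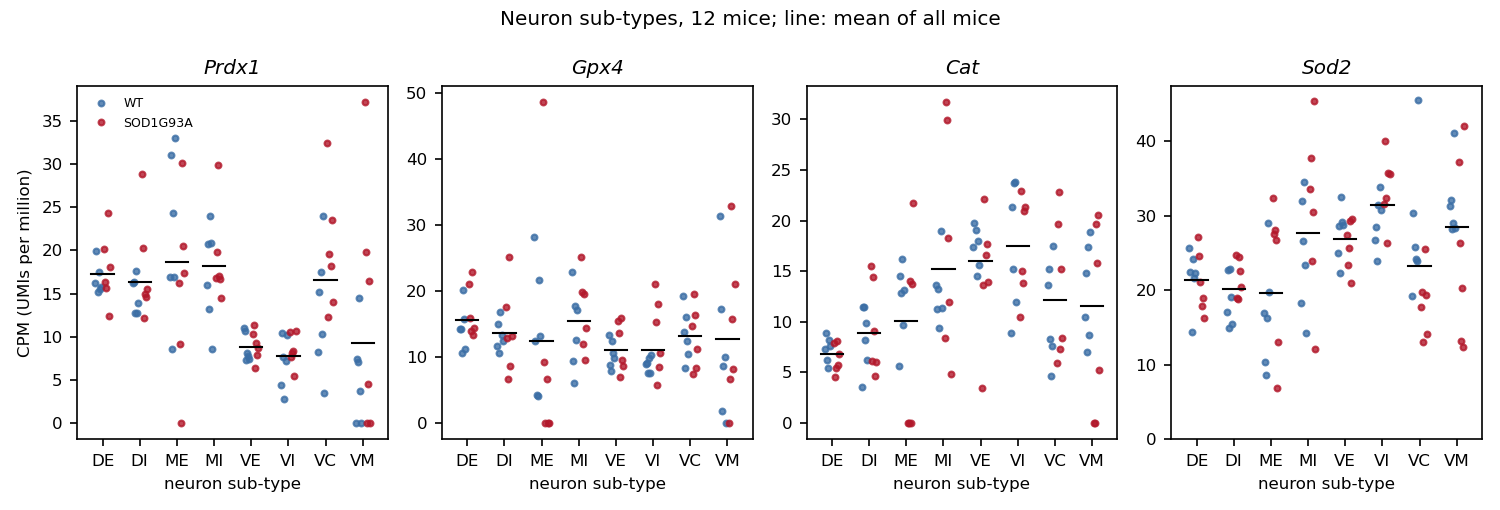
CPM of Prdx1, Gpx4, Cat and Sod2 by neuron sub-type in each mouse (WT blue, SOD1G93A red), with a line at the mean of all mice; DE and DI are dorsal, ME and MI mid, and VE, VI, VC (cholinergic) and VM (mixed) ventral. Prdx1 is lower in VE and VI than in DE and DI, and Cat is higher there, while both genotypes mix within every sub-type.

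Between genotypes, none of the 9 members other than Sod1 was called in any cell type. Of all genes tested, 2.29% were called in astrocytes, 3.07% in motor neurons and 0.0131% to 0.0759% in the other 6 types where members were tested, so a count of 0 is near the background and is no result about these enzymes. Sod3 passed the count filter in endothelial cells alone. Of the 9, all were tested in endothelial cells, 8 in astrocytes and in neurons, 7 each in oligodendrocytes, microglia and Schwann and meningeal cells, and 1 each in OPCs (Prdx1) and motor neurons (Prdx2), giving 48 tests in 8 types. The count was 0 with limma, 0 with edgeR's quasi-likelihood test and 0 with DESeq2, and 6 of the 48 had an unadjusted p under 0.05 with limma. The log2 fold changes ran from -0.60 to 0.91 with a median of -0.03, and 22 of the 48 were above 0. The highest was that of Gpx1 in Schwann and meningeal cells, which passed the filter there through its counts in SOD1G93A mice. In 45 of the 48 tests the whole 95% interval lay within a 2-fold difference in either direction. The exceptions were Gpx1 and Sod2 in Schwann and meningeal cells and Cat in microglia.

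**Figure D4:**
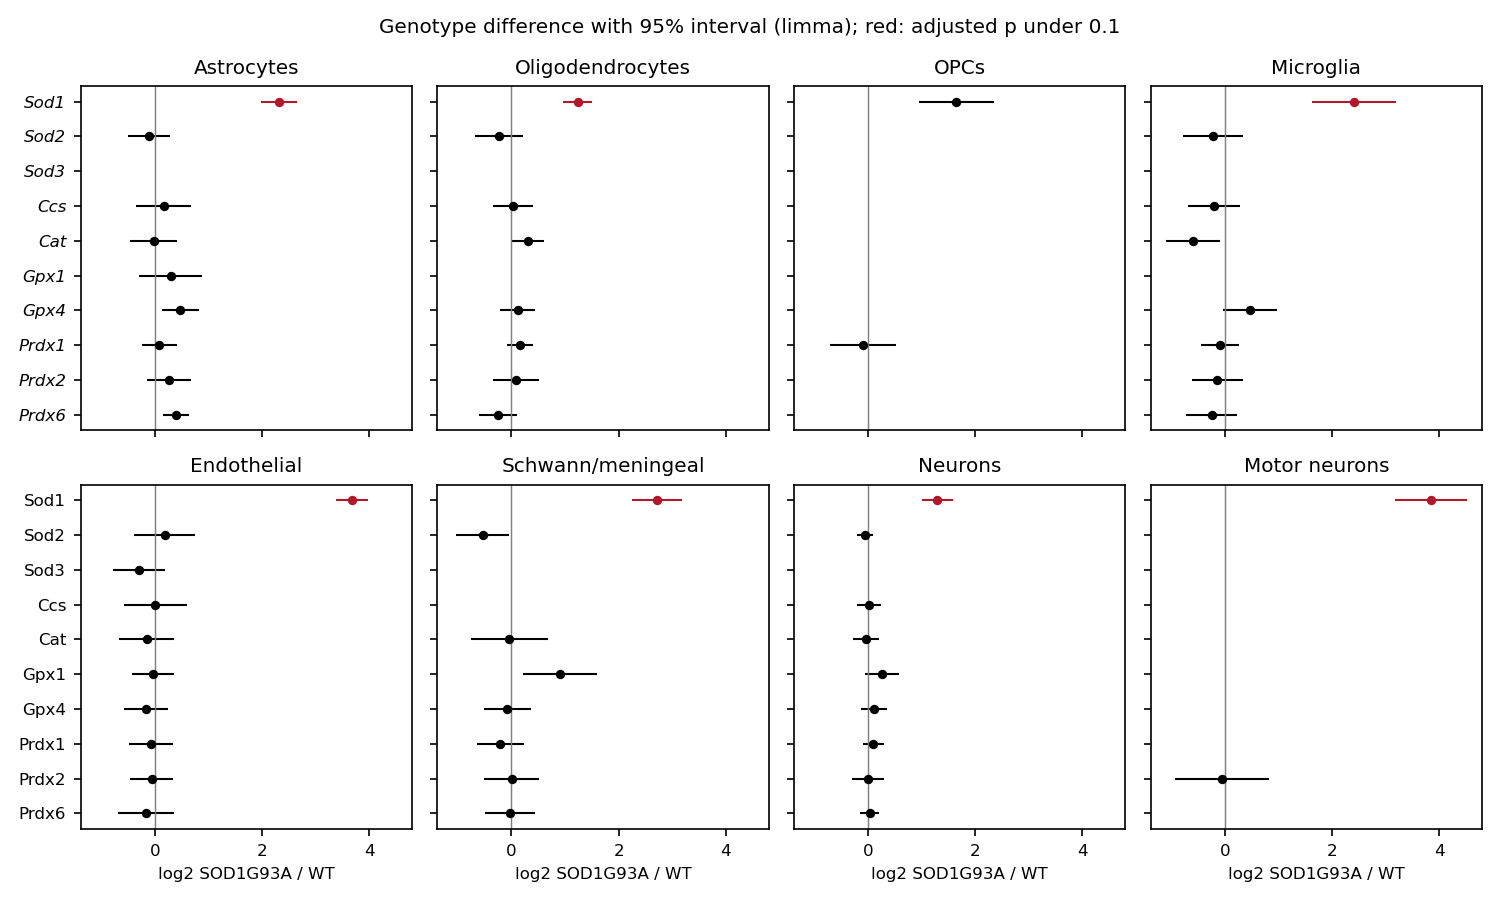
Log2 fold change of SOD1G93A over WT mice with its 95% interval from limma, for each member that passed the count filter in each of 8 cell types; red marks an adjusted p under 0.1. Sod1 is red in 7 panels, and every other member is black.

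Precision was best in neurons. There the members' standard errors lay between 0.07 and 0.15, and for Sod2, with 24.5 ± 2.45 CPM in WT and 23.6 ± 1.56 CPM in SOD1G93A mice, the interval of the log2 fold change was -0.21 to 0.10. Ccs was 13.1 ± 1.42 and 13.3 ± 2.75 CPM, with an interval of -0.21 to 0.25, and Cat was 12.6 ± 1.43 and 12.4 ± 1.88 CPM, with an interval of -0.28 to 0.20. In endothelial cells, where Sod1 had a log2 fold change of 3.68, Gpx1 was 199.8 ± 87.6 CPM in WT and 196 ± 66.2 CPM in SOD1G93A mice and its interval was -0.43 to 0.36. Sod3 was 59.3 ± 17.6 CPM in WT and 45.8 ± 8.58 CPM in SOD1G93A endothelial cells (log2 fold change -0.30, interval -0.77 to 0.18, limma adjusted p = 0.98), and its groups overlapped.

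Astrocytes held the members closest to a call. Prdx6 had 215, 230, 163, 267, 249 and 151 CPM in the female WT mice of pools A, B and C and the male WT mice of pools A, B and C, and 295, 397, 268, 304, 245 and 252 CPM in the SOD1G93A mice in the same order. It was the higher in the SOD1G93A mouse in 5 of 6 pairs of the same sex and pool, and the groups overlapped. The log2 fold change was 0.39 (interval 0.14 to 0.64, limma adjusted p = 0.117). Over 24 alternatives the adjusted p ran from 0.0400 to 0.660, and the difference was called in 4 of them. Without scaling factors, which moved the median of all astrocyte genes from 0.02 to 0.09 on the log2 scale, the log2 fold change was 0.47 (limma adjusted p = 0.0400).

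Gpx4 was the higher in 6 of 6 astrocyte pairs. The WT mice in that order had 49.0, 68.9, 41.2, 97.8, 48.7 and 51.6 CPM and the SOD1G93A mice 88.2, 83.6, 67.7, 145, 63.6 and 72.5 CPM, again with overlap, and the male WT and the male SOD1G93A mouse of pool A were the highest of their groups. The log2 fold change was 0.48 (interval 0.12 to 0.83, limma adjusted p = 0.199, with 0.0532 to 0.657 over 24 alternatives). Leaving out the pool B WT female made it a call (0.66), as did leaving out the pool A SOD1G93A female (0.56). The other 6 members tested in astrocytes had log2 fold changes from -0.11 (Sod2) to 0.29 (Gpx1).

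Other RNA moved with genotype in the same nuclei. The 3 astrocyte markers, which include Gfap, summed to between 867 and 1122 CPM in WT and between 1672 and 2225 CPM in SOD1G93A astrocytes. The oligodendrocyte genes Mbp and Mog together ranged from 601 to 909 CPM (median 747) in WT and from 759 to 1509 CPM (median 1118) in SOD1G93A astrocytes. The neuronal markers ranged from 103 to 209 CPM and from 143 to 244 CPM, and the Schwann and meningeal markers from 27.5 to 46.8 CPM and from 34.9 to 52.4 CPM. Their part in the values of Prdx6 and Gpx4 was not tested.

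In Schwann and meningeal cells Gpx1 was higher in 6 of 6 pairs, on 32 UMIs in the WT and 238 in the SOD1G93A group. WT mice had 56.4, 46.6 and 20.9 CPM (females of pools A, B and C) and 50.6, 0 and 39.8 CPM (males), and SOD1G93A mice had 119, 116 and 41.8 CPM and 127, 36.0 and 94.5 CPM. The log2 fold change was 0.91 and was not called (limma adjusted p = 0.999). Gpx1 passed the count filter of this type through its counts in SOD1G93A mice. Its size is therefore not ranked among the tests, and no interval is given. Sod2 went the other way, from 104 ± 32.6 to 77.2 ± 33.6 CPM (log2 fold change -0.54, limma adjusted p = 0.999). The share of nuclei with this label was 0.575% to 6.70% in WT mice and 4.26% to 25.0% in SOD1G93A mice. The nuclei had a median of 1344.5 UMIs in WT and 1722 in SOD1G93A mice, with 89.1% and 79.5% of them under 3000 UMIs. Mbp and Mog together ranged from 1389 to 2835 CPM (median 2200.5) in WT and from 851 to 2619 CPM (median 1563) in SOD1G93A mice. The part of these shifts in the Gpx1 and Sod2 values was not tested.

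In motor neurons most members had too few UMIs for a test. Prdx2, the member that passed the filter, had 21.3 ± 14.3 CPM in WT and 26.2 ± 12.9 CPM in SOD1G93A mice (log2 fold change -0.06, interval -0.94 to 0.82, limma adjusted p = 0.965). Gpx4, with 20 UMIs in 44 WT nuclei and 39 UMIs in 23 SOD1G93A nuclei, failed the filter. Its values were 5.93, 5.04, 8.37, 19.5, 6.14 and 0 CPM in WT mice and 27.02, 38.6, 0, 43.3, 18.5 and 6.50 CPM in SOD1G93A mice, in the order used above, and it was the higher in 5 of 6 pairs. With no filter on low counts its log2 fold change was 1.45 (limma adjusted p = 0.0789). In the same nuclei Mbp and Mog together ranged from 26.3 to 340 CPM (median 116) in WT and from 30.02 to 284 CPM (median 222) in SOD1G93A mice, and their part was not tested.

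**Figure D5:**
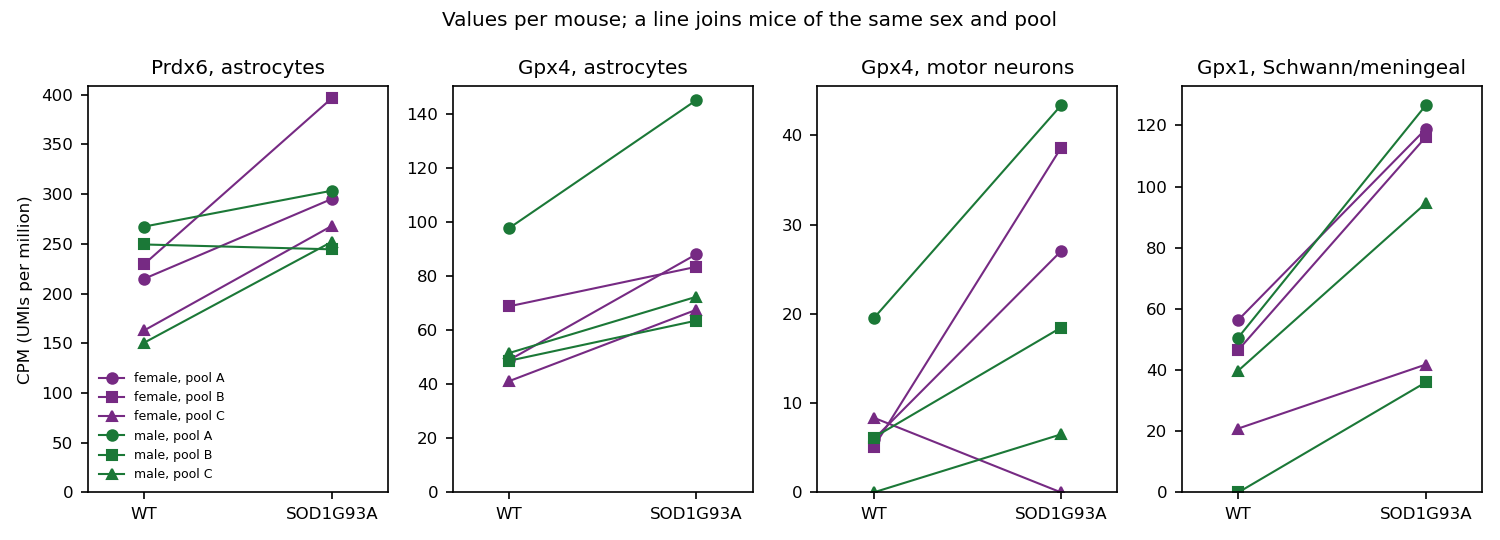
CPM per mouse for Prdx6 and Gpx4 in astrocytes, Gpx4 in motor neurons and Gpx1 in Schwann and meningeal cells; a line joins the WT and the SOD1G93A mouse of the same sex (female purple, male green) and pool (A circle, B square, C triangle). The SOD1G93A mouse is the higher in 5, 6, 5 and 6 of 6 pairs, and the adjusted p of the tested ones is above 0.1.

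Cat gave the remaining small unadjusted p-values, in opposite directions. In microglia by label it was 19.1 ± 5.29 CPM in WT and 12.5 ± 2.54 CPM in SOD1G93A mice (log2 fold change -0.60, interval -1.10 to -0.09, limma adjusted p = 0.505), and in oligodendrocytes it was 32.0 ± 5.53 and 40.0 ± 8.19 CPM (log2 fold change 0.31, interval 0.02 to 0.60, limma adjusted p = 1.00). Groups overlapped in both types. The 3 microglial markers in the nuclei labelled microglia summed to between 46.6 and 91.2 CPM (median 57.5) in WT and between 38.8 and 122 CPM (median 110.1) in SOD1G93A mice, and their part in the Cat values was not tested. Prdx1 in oligodendrocytes was 92.6 ± 18.2 and 105 ± 14.2 CPM (interval -0.08 to 0.40).

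In 40 tests of the 9 members over the sub-types no difference was called (0.0252% of all gene-by-sub-type tests were called), and 1 had an unadjusted p under 0.05. It was Prdx2 in mid inhibitory neurons (MI), with a log2 fold change of 0.54 (interval 0.06 to 1.01, limma adjusted p = 0.998). With edgeR and with DESeq2 the count was also 0.

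Sex was compared as female minus male over both genotypes. No member was called in any cell type (0.159% of all gene-by-type tests were called), and 1 of the 48 tests of the 9 members had an unadjusted p under 0.05. It was Gpx1 in endothelial cells, lower in females with a log2 difference of -0.48 (interval -0.87 to -0.08, limma adjusted p = 0.77). For the difference of the genotype effects between males and females the count was 0 as well (0.0058% of all gene-by-type tests), with 0 of 48 at an unadjusted p under 0.05. These intervals were wide, up to 1.76 log2 units on either side. Neither edgeR nor DESeq2 called a member in these comparisons.

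The genes around the members were followed in 7 lists of the wider defence, which were drawn up with earlier results of these data known. Of the 11 genes of copper delivery or metallothioneins, 3 were called between genotypes in 47 tests over all types, all in astrocytes and all higher. They were the metallothioneins Mt1 (log2 fold change 0.79, limma adjusted p = 0.00033), Mt2 (0.65, limma adjusted p = 0.011) and Mt3 (0.52, limma adjusted p = 0.030), which bind copper and zinc. No gene of copper delivery on this list was called. Of the 20 measured genes on ferroptosis and lipid peroxides, 1 was called in 83 tests, the ferritin heavy chain Fth1, which stores iron, in astrocytes (0.58, limma adjusted p = 0.0054). No gene was called in the other 5 lists. These were the other peroxiredoxins and the thioredoxin system (13 genes, 58 tests), glutathione peroxidases, synthesis and recycling (19 genes, 69 tests), glutathione transferases (21 genes, 39 tests), NRF2 control and targets (23 genes, 97 tests) and oxidant sources (23 genes, 49 tests). At an unadjusted p under 0.05 these 5 lists had 7, 3, 2, 4 and 8 tests. All the lists' calls thus fell in astrocytes, where 2.29% of all tested genes were called. Each of the called genes, Mt1, Mt2, Mt3 and Fth1, had been named by the authors as altered in astrocytes from the same data. Their calls here are therefore not independent of that report. The numbers of tests given for the lists are over all types and cannot be set against that share.

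The genes most like each member across the 8 types of WT mice were sought by Pearson's r of mean log2 CPM among 14596 genes, as a description over 8 points that share libraries. Prdx6 was followed by Ndrg2 (r = 0.99), Ppp1r3c (0.99) and Gja1 (0.98), of which Gja1 encodes the astrocyte gap junction protein connexin 43. For Gpx4 they were Zfp706, Cldnd1 and Selenok, and for Gpx1 Cnbp, Pttg1ip and Ctnnb1 (r from 0.99 to 1.00). For Prdx1 they were Csnk1a1, Enpp4 and Fam204a, for Prdx2 Atp5j2, Glrx5 and Rad23b, and for Sod1 Alkbh7, Gstm5 and Ndufb8, of which Ndufb8 encodes a subunit of mitochondrial complex I. Those of Sod2 were Rwdd2a, Abhd8 and Fam217b, those of Sod3 Mindy2, Chrac1 and Max, those of Ccs Fam91a1, Nbn and Yme1l1, and those of Cat Dhx40, Rab22a and Ddit3, with r from 0.98 to 1.00.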

How the data were processed

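The deposited counts are whole UMIs per gene and nucleus without normalization, made by the authors with Cell Ranger 3.1 (STAR 2.5.1b) on a pre-mRNA version of mm10. The authors assigned nuclei to mice by hashtag and removed nuclei with few genes, much mitochondrial RNA, or ambiguous or absent hashtags. Cell types and neuron sub-types are the deposited ones. Doublets within 1 mouse are not marked. The deposited table of integrated values was not used. UMIs were summed per mouse and type, which makes the mouse the replicate, with the pool (genotype, sex; each pool held 1 mouse of every group, per the labels) or the mouse (cell types) as a block. Genes were filtered with filterByExpr (minimum count 10), scaled with TMMwsp factors, and tested with limma 3.58.1 (voom, robust eBayes) in R 4.3.3, with Benjamini-Hochberg adjustment over all genes of a type and a threshold of 0.1. The scripts were tested on simulated data. Alternatives included edgeR 4.0.16, DESeq2 1.42.0, other scalings and filters, nuclei with at least 3000 UMIs, and leaving out each mouse or pool. CPM are on unscaled library sizes, and within-mouse differences use log2(CPM + 1). Mice had 6411715 to 36668441 UMIs each. Hashtag number and group coincide in every pool and cannot be told apart. All 10 members and every called gene of the 7 lists are named, and the 3 most similar genes among those with at least 5 CPM in some type. The members and lists were chosen with earlier results of these data known. Counting error limits the precision of low genes. Oligodendrocyte RNA in other types is given as the sum of Mbp and Mog, chosen after seeing the data, and the full list of oligodendrocyte markers is not reported here.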

Additional observations from a re-analysis of the deposited data

Results flagged for a closer look

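Levels per mouse were screened with Dixon's ratio (critical value 0.625 for 6 mice), which marks about 1 in 20 groups by chance. Of 114 groups of mice checked it marked 8, and 5 of these were in the astrocytes of SOD1G93A mice. The male SOD1G93A mouse of pool A stood above the other 5 of its genotype in astrocytes for Sod1 (1362 CPM, the next 726), Gpx4 (145 CPM, the next 88.2), Prdx2 (72.2 CPM, the next 46.8) and Gpx1 (43.0 CPM, the next 20.8), and in microglia by label for Sod1 (284 CPM, the next 113) and Gpx4 (35.4 CPM, the next 19.0). The male WT mouse of the same pool was marked for Gpx4 in oligodendrocytes (53.0 CPM, the next 35.5). Cat in astrocytes was 59.9 CPM in the male SOD1G93A mouse of pool C, and 32.6 CPM in the next.

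The genotype difference had opposite signs in all female and all male pairs for Sod2 in astrocytes, lower in the 3 female and higher in the 3 male SOD1G93A mice, and for Prdx1 in Schwann and meningeal cells, higher in the 3 female and lower in the 3 male ones. The differences of the effects (male minus female) were 0.41 and -0.84 on the log2 scale, and neither was called by limma's test of that difference (adjusted p = 1.00 and 0.993). How many such cases arise by chance was not worked out. The male WT mouse of pool B had 13 Schwann and meningeal nuclei with 14464 UMIs.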

How the results depend on the processing

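The count of members other than Sod1 called between genotypes in cell types was 0, and it was 1 with no scaling factors (Prdx6 in astrocytes, adjusted p = 0.0400), 1 with no filter on low counts (Gpx4 in motor neurons, adjusted p = 0.0789) and 1 with a minimum count of 30 (Prdx6 in astrocytes, adjusted p = 0.0738). Leaving out 1 mouse gave 0 to 3. The 3 came without the pool A SOD1G93A female (Prdx6 and Gpx4 in astrocytes, Gpx4 in motor neurons), 2 came without the pool B SOD1G93A male (Prdx6 in astrocytes, Gpx4 in motor neurons), 1 without the pool B WT female (Gpx4 in astrocytes) and 1 without the pool A WT male (Gpx4 in motor neurons). Leaving out a mouse made the smallest group smaller, so the count filter asked for fewer mice. Gpx4 in motor neurons then passed it through SOD1G93A mice alone. Its calls there are therefore not read as a dependence on single mice. The cause of the changes in astrocytes was not tested.

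Sod1 was called in 7 types, in 4 with no replicate block (no pool term), in 4 without pool C, and in 6 to 8 without 1 mouse. In neuron sub-types it was called in 8, in 0 with no replicate block and in 6 to 8 without 1 mouse. For sex, Sod1 was called in 1 type without pool B and in 0 otherwise. The pool block changed no call of the other members. In sub-types, for sex and for the interaction, leaving out 1 mouse gave 0 calls of them.

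The 16 levels called higher became 4 against the highest other type. Without 1 mouse the counts were 15 to 17 higher and 16 to 19 lower. Against the highest other type the sign turned for Sod1 (-1.32) and Sod3 (-2.79) in astrocytes, Gpx4 (-0.49) and Prdx2 (-0.48) in endothelial cells, and Gpx1 (-2.19), Prdx1 (-0.42), Prdx6 (-0.82) and Sod3 (-2.96) in Schwann and meningeal cells. In these cases another single type had the higher level. The highest other type is by construction not below the mean of the other types, which was the main reference. This reference was not applied to lower calls. With edgeR Sod3 in oligodendrocytes was 0.49, and its calls were lost in microglia (-1.94, adjusted p = 0.980), neurons (-1.19, adjusted p = 0.936) and Schwann and meningeal cells (1.60, adjusted p = 0.262). DESeq2 lost those in oligodendrocytes (-0.65, adjusted p = 0.315) and in Schwann and meningeal cells (1.31, adjusted p = 0.174). Sod1 in astrocytes lost its higher call without the pool A WT female (0.99), without the pool C WT female (0.94) and without microglial nuclei (0.84). Without microglial nuclei, an alternative chosen after seeing the data, 15 levels were higher and 17 lower. Low UMI counts limit Sod3 outside endothelial cells and most members in motor neurons and OPCs.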
